A study of Mus musculus with 18 samples.

Results

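Slc22 organic ion transporters carry charged small molecules across the membranes of the kidney's proximal tubule. The set described here is 9 genes, chosen by name as the rows Slc22a2, Slc22a4, Slc22a5, Slc22a6, Slc22a7, Slc22a8, Slc22a12, Slc22a13 and Slc22a18, of 55385 genes in the deposited tables. All 9 were found and all 9 passed the filter on low counts. PolyA RNA from whole kidney was sequenced in 6 Dp16 mice, 6 Dp16 2xIFNRs mice and 6 wild-type C57BL/6J mice, each group holding 3 males and 3 females. The animals were 17.1 to 18.0 weeks old in Dp16 and in wild-type, and 17.7 to 18.0 weeks old in Dp16 2xIFNRs. The labels name no treatment. Dp16 is a mouse model of trisomy 21 that carries an extra copy of a long segment of chromosome 16 in every cell. Dp16 2xIFNRs mice carry that segment too, but their interferon receptor genes are back at the usual copy number. The labels name C57BL/6J for the wild-type group and give no background for the other groups. None of the 9 transporter genes lies on chromosome 16.

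In the proximal tubule, organic anion transporters on the blood side take up drugs, toxins and metabolites from plasma in exchange for dicarboxylates such as alpha-ketoglutarate, and other carriers release them into the urine. Slc22a6 (OAT1) and Slc22a8 (OAT3) are the main uptake carriers of this kind, and Slc22a7 (OAT2) also carries organic anions. Slc22a12 (URAT1) returns urate to the cell from the tubule fluid, and Slc22a13 (OAT10) is an exchanger of nicotinate and urate, a role known from human and rat. Slc22a2 (OCT2) takes up organic cations from the blood, Slc22a4 (OCTN1) carries ergothioneine, and Slc22a5 (OCTN2) recovers carnitine. Slc22a18 is an imprinted gene of distal chromosome 7 whose substrate is not settled. In rodent kidney several of these genes are known to differ between males and females.

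Library totals were 42157790 to 57814587 counts, and each transporter had at least 1959 counts in every library. Mitochondrial genes took 6.34% to 10.9% of the counts. Levels are given as CPM, the counts scaled to TMM-adjusted library size, and levels of different genes are compared in RPKM, which divides by gene length. The receptor genes Ifnar1, Ifnar2, Ifngr2 and Il10rb were called higher in 4 of 4 cases in Dp16 against wild-type. In Dp16 2xIFNRs against wild-type 1 of 4 was called higher, which was Ifnar2, a chain of the type I interferon receptor, at a log2 fold of 0.20 (edgeR adjusted p = 0.0368). Ifnar2 had 44.4 to 56.9 CPM in Dp16 and 29.1 to 37.0 CPM in Dp16 2xIFNRs, against 26.7 to 31.6 CPM in wild-type. Ifnar1 had 34.7 to 41.0 CPM in Dp16 2xIFNRs, against 28.6 to 37.1 CPM in wild-type, and was not called there (edgeR adjusted p = 0.288) or between Dp16 2xIFNRs and Dp16 (log2 fold -0.42, edgeR adjusted p = 0.113). Proximal tubule markers were present in every library, with a summed level over 13 genes of 15113 to 21761 CPM in Dp16, 15267 to 23514 CPM in Dp16 2xIFNRs and 17086 to 21566 CPM in wild-type. Of these 13 markers 0 were called in either comparison with wild-type. Within females their sum was 15113 to 15756 CPM in Dp16 and 15267 to 17885 CPM in Dp16 2xIFNRs, against 17086 to 18143 CPM in wild-type, so that Dp16 females lay below wild-type females without overlap. Within males it was 19774 to 21761 CPM in Dp16 and 20214 to 23514 CPM in Dp16 2xIFNRs, against 20325 to 21566 CPM in wild-type, with overlap. A wild-type female, replicate 5, held 1627 counts of Star and 607 of Cyp11b1, both adrenal genes, against 1 to 121 and 0 to 47 in the other libraries. Another wild-type female, replicate 2, held 8495 counts of Alb, a liver gene, against 720 to 1923 in the other wild-type libraries. The genotype calls of the transporters are given with and without these libraries. Of the 7 transporters called by sex, 6 were called without either one, and the exception is given at Slc22a4.

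The genes lie on chromosomes 7, 9, 11, 17 and 19 (GRCm38, GENCODE M21 gene spans). Slc22a8 (chr19:8591254-8611835) and Slc22a6 (chr19:8618039-8628299) lie on the plus strand, 6203 bases apart with 0 genes between them. Slc22a12 (chr19:6535845-6543032) is on the minus strand of the same chromosome. Slc22a2 (chr17:12584132-12628488, plus strand) and Slc22a7 (chr17:46432183-46438457, minus strand) are on chromosome 17. Slc22a5 (chr11:53864542-53891660) and Slc22a4 (chr11:53983123-54028090) share the minus strand of chromosome 11, with 91462 bases and 5 genes between them. Slc22a13 (chr9:119192974-119209098, minus strand) lies inside the annotated span of Slc22a14, on the same strand, and Slc22a18 (chr7:143473736-143499334) is on the plus strand of chromosome 7. Slc22a12 overlaps Nrxn2 on the opposite strand. The kit keeps strand, but the strand setting of the counting is not given in the sources used here, so reads shared with an overlapping gene are uncertain for Slc22a12 and Slc22a13.

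Promoters are shown for the neighbours Slc22a8 and Slc22a6, whose sex differences run in opposite directions, and for Slc22a18, the higher-in-males gene with hormone receptor half-sites. They are the 250 bases before the RefSeq start (GRCm38.p6), and 8 of the 9 genes were matched in the RefSeq table used here. Each is written 5′ to 3′ along the gene's own strand. Capitals mark the letters AGAACA, a half-site of the androgen receptor, which was searched on both strands, the reverse form being TGTTCT.
Slc22a8, chr19:8592932-8593181, plus strand: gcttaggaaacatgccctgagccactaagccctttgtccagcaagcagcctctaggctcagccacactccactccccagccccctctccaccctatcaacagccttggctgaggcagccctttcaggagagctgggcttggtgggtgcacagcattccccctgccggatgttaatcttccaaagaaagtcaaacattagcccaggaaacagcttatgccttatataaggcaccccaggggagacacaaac
Slc22a6, chr19:8617746-8617995, plus strand: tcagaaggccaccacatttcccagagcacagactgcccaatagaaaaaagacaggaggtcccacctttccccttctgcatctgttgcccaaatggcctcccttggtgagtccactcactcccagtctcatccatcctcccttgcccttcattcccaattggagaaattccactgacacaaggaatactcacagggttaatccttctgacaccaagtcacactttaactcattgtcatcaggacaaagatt
Slc22a18, chr7:143473539-143473788, plus strand: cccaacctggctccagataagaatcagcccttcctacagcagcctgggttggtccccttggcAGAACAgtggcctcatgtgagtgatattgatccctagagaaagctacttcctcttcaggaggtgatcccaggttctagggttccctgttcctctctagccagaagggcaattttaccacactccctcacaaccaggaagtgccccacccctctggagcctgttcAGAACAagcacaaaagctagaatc
The RefSeq starts of Slc22a8 and Slc22a18 lie inside the GENCODE spans of these genes, and so does the half-site nearer the start of Slc22a18. Among the 8 promoters the androgen receptor half-site was found in Slc22a18 alone, at 188 to 183 and 24 to 19 bases before the start. Of 27025 RefSeq promoters of the same length 4369 held it, or 16.2%. A match is a run of letters and not a measured binding site.

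Dp16 and wild-type kidneys differ in the extra segment, and their comparison addresses the effect of that segment on the transporters. The labels give no background for Dp16, so any other difference between the groups cannot be told apart from the segment. Of the 9 transporters 0 were called higher, 2 were called lower and 7 were not called at an edgeR adjusted p of 0.05. The called genes were the organic anion transporters Slc22a8 and Slc22a7. Among all 17575 genes tested 4.23% were called, 3.17% higher and 1.06% lower. The 9 genes, and the gene lists below, were chosen with earlier results of these data known, so this share is no test of them. All 9 log2 folds were below 0, with a median of -0.16 where the median over all genes was -0.01. In Dp16 2xIFNRs against wild-type the counts over the 9 genes were again 0 higher, 2 lower and 7 not called, with the same 2 genes lower, beside 4.79% of all genes called, 3.17% higher and 1.61% lower. The median log2 fold of the 9 genes was -0.18, against 0.01 over all genes. Both comparisons share the wild-type animals, so the likeness of their values is not independent evidence. In bulk tissue, fewer cells of a type and less RNA per cell cannot be told apart. The labels number the samples, each taken here as an animal, and p-values measure the spread between these animals only.

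Slc22a8, the blood-side uptake carrier OAT3, was the more firmly called of the lower genes. The males of Dp16 (replicates 1, 5 and 6) had 549, 367 and 465 CPM, those of Dp16 2xIFNRs (replicates 1, 3 and 6) had 442, 428 and 459 CPM, and those of wild-type (replicates 1, 3 and 4) had 575, 659 and 751 CPM. Among females, Dp16 (replicates 2, 3 and 4) had 936, 776 and 930 CPM, Dp16 2xIFNRs (replicates 2, 4 and 5) had 827, 981 and 912 CPM, and wild-type (replicates 2, 5 and 6) had 1063, 1157 and 1065 CPM. Within each sex every animal with the duplication lay below every wild-type animal. No other transporter was separated from wild-type in this way within both sexes. Of all genes, 0.916% were lower without overlap within either sex in Dp16 and 1.97% in Dp16 2xIFNRs. Slc22a8 fell by 0.42 ± 0.09 on the log2 scale in Dp16 (SE, n = 6 each, 95% interval -0.61 to -0.23, edgeR adjusted p = 0.0109), a level 25.3% lower. In Dp16 2xIFNRs it fell by 0.43 ± 0.09 (95% interval -0.62 to -0.24, edgeR adjusted p = 0.00884), a level 25.6% lower. Without wild-type replicate 5 the log2 folds were -0.42 in Dp16 (edgeR adjusted p = 0.0172) and -0.43 in Dp16 2xIFNRs (edgeR adjusted p = 0.0140). Without wild-type replicate 2 they were -0.45 (edgeR adjusted p = 0.0136) and -0.45 (edgeR adjusted p = 0.0119).

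**Figure D1:**
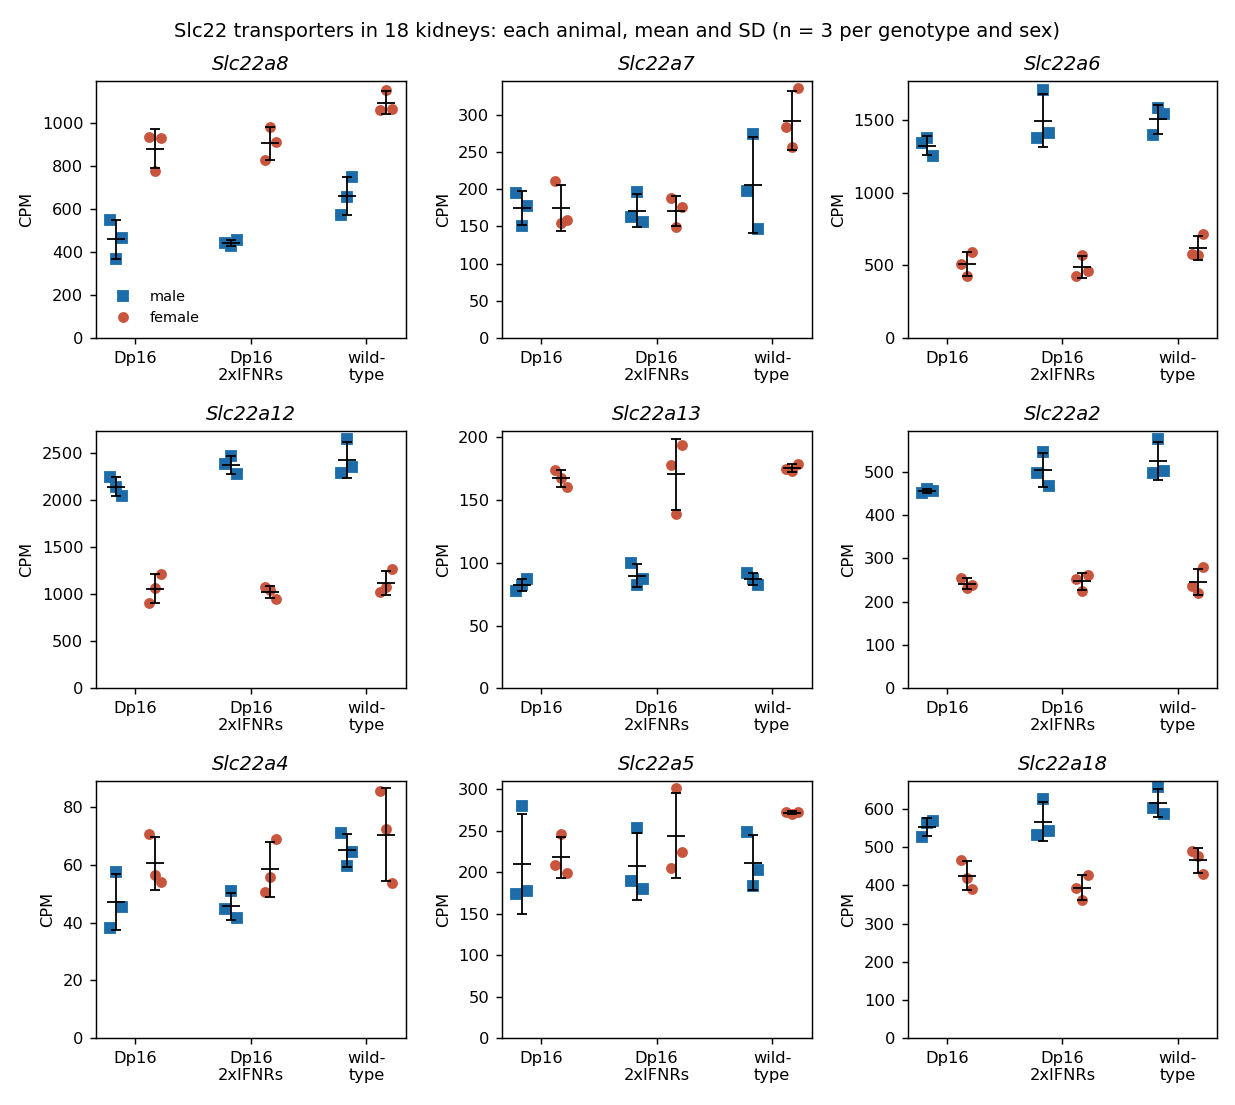
CPM of the 9 Slc22 transporters in each of the 18 kidneys, with Dp16 and Dp16 2xIFNRs left of wild-type, males and females drawn apart, and a bar at the mean of each set of 3 animals. Slc22a8 is the gene whose duplication-carrying animals all lie below the wild-type animals of their own sex.

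Slc22a7, the anion carrier OAT2, was called lower with less margin. Dp16 males had 195, 150 and 178 CPM, Dp16 2xIFNRs males 162, 196 and 155 CPM, and wild-type males 198, 274 and 146 CPM. Dp16 females had 211, 155 and 159 CPM, Dp16 2xIFNRs females 188, 149 and 176 CPM, and wild-type females 284, 257 and 335 CPM. The females with the duplication all lay below the wild-type females, while the males overlapped, the lowest male of all being a wild-type animal. Slc22a7 fell by 0.50 ± 0.14 on the log2 scale in Dp16 (SE, n = 6 each, 95% interval -0.79 to -0.20, edgeR adjusted p = 0.0495), or 29.1%. In Dp16 2xIFNRs it fell by 0.53 ± 0.14 (95% interval -0.82 to -0.23, edgeR adjusted p = 0.0345), or 30.6%. The call in Dp16 was lost when wild-type replicate 5 (edgeR adjusted p = 0.0634) or wild-type replicate 2 (edgeR adjusted p = 0.0955) was left out, and in 15 of the 18 fits that each left out 1 library. A number in the sample descriptions recurs across genotypes, 5 numbers being held by 11 of the 18 libraries, and what it stands for is not given. When limma-voom took libraries of equal number as correlated, the Slc22a7 call in Dp16 was lost too (limma adjusted p = 0.0580). The call in Dp16 2xIFNRs held without replicate 5 (edgeR adjusted p = 0.0439), was lost without replicate 2 (edgeR adjusted p = 0.0723), and was lost in 8 of the 18 such fits.

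Slc22a6, the neighbour of Slc22a8 and the main para-aminohippurate carrier, was not called. Dp16 males had 1345, 1376 and 1254 CPM, Dp16 2xIFNRs males 1376, 1705 and 1411 CPM, and wild-type males 1395, 1583 and 1545 CPM. Dp16 females had 514, 429 and 595 CPM, Dp16 2xIFNRs females 431, 572 and 463 CPM, and wild-type females 582, 569 and 717 CPM. Dp16 males all lay below the wild-type males, and the other sets overlapped with wild-type. Its log2 folds were -0.24 ± 0.09 in Dp16 (edgeR adjusted p = 0.185) and -0.18 ± 0.09 in Dp16 2xIFNRs (edgeR adjusted p = 0.334). Separation within a single sex is given for several genes, above and below, and the share of all genes with it was not computed.

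Neither urate carrier was called. Slc22a12 had log2 folds of -0.13 in Dp16 (edgeR adjusted p = 0.377) and -0.08 in Dp16 2xIFNRs (edgeR adjusted p = 0.592), and its Dp16 males, at 2046 to 2240 CPM, lay below the wild-type males, at 2287 to 2643 CPM. Its females and its Dp16 2xIFNRs males overlapped with wild-type. Slc22a13 had log2 folds of -0.08 (edgeR adjusted p = 0.652) and -0.00 (edgeR adjusted p = 0.999), the smallest pair of the 9 genes. The cation carrier Slc22a2 had log2 folds of -0.11 in Dp16 (edgeR adjusted p = 0.436) and -0.03 in Dp16 2xIFNRs (edgeR adjusted p = 0.886). Its Dp16 males, at 450.2 to 460 CPM, lay below the wild-type males, at 496 to 575 CPM, and its other sets overlapped with wild-type.

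The ergothioneine carrier Slc22a4 came nearest to the threshold among the genes not called. Dp16 males had 38.2, 57.6 and 45.5 CPM, Dp16 2xIFNRs males 44.6, 50.8 and 41.7 CPM, and wild-type males 70.9, 59.6 and 64.5 CPM. Dp16 females had 70.7, 56.6 and 53.9 CPM, Dp16 2xIFNRs females 50.5, 55.7 and 68.7 CPM, and wild-type females 85.3, 72.1 and 53.6 CPM. The males with the duplication all lay below the wild-type males and the females overlapped. The log2 folds were -0.34 ± 0.12 in Dp16 (edgeR adjusted p = 0.108) and -0.39 ± 0.12 in Dp16 2xIFNRs (edgeR adjusted p = 0.0622). Slc22a4 was called under 2 of 28 alternatives in Dp16 and 5 of 28 in Dp16 2xIFNRs, those with no filter on low counts and without wild-type replicate 6 being in both sets. The carnitine carrier Slc22a5 had log2 folds of -0.16 ± 0.13 and -0.09 ± 0.13, with edgeR adjusted p of 0.585 and 0.755. Its Dp16 females, at 199 to 246 CPM, lay below the wild-type females, at 270 to 273 CPM, and its other sets overlapped with wild-type. Slc22a18, the imprinted gene, had log2 folds of -0.14 ± 0.06 and -0.18 ± 0.06, with edgeR adjusted p of 0.235 and 0.116. Its Dp16 males, at 527 to 569 CPM, lay below the wild-type males, at 587 to 658 CPM, and its Dp16 2xIFNRs females, at 363 to 427 CPM, lay below the wild-type females, at 429 to 491 CPM.

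**Figure D2:**
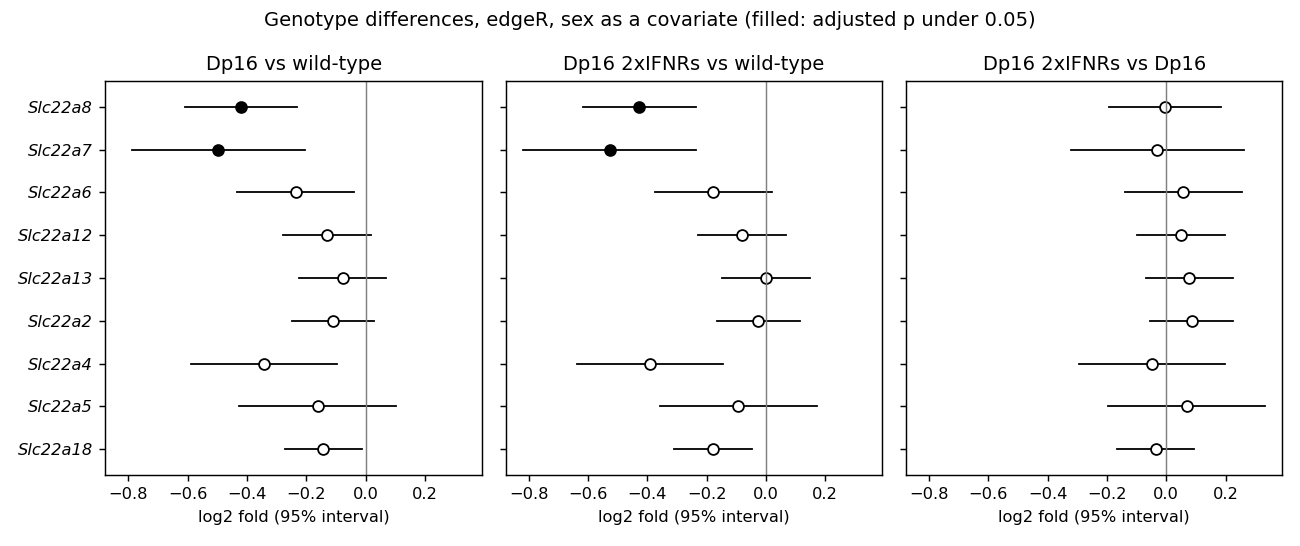
Log2 fold of each transporter with its 95% interval in the fit over both sexes, for Dp16 against wild-type, Dp16 2xIFNRs against wild-type and Dp16 2xIFNRs against Dp16. The first 2 comparisons have their lowest folds at Slc22a7 and Slc22a8, and the intervals of the third all cross 0.

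The comparison of Dp16 2xIFNRs with Dp16 asks what the copy number of the interferon receptor genes does on the background of the duplication. Of the 9 transporters 0 were called, and of all genes 0.0171% were, which are the 3 receptor genes Ifnar2, Ifngr2 and Il10rb. An unadjusted p below 0.05 was reached by 827 genes, and DESeq2 called 0 of the 9 transporters too. The log2 fold of Slc22a8 was -0.01 with a 95% interval of -0.19 to 0.18, that of Slc22a7 was -0.03 (-0.32 to 0.26) and that of Slc22a4 was -0.05 (-0.29 to 0.20). These intervals bound a difference and do not show that the genotypes are alike. The median over the 9 genes was 0.05, with 4 of 9 below 0, and that over all genes was 0.00.

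Within the sexes the genotype differences of the called genes were unequal in size. Among males Slc22a8 was the single transporter called lower in Dp16, with a log2 fold of -0.52 ± 0.12 (n = 3 each, edgeR adjusted p = 0.0380), beside 0.597% of all genes called lower. In Dp16 2xIFNRs males it was again the single one, with -0.58 ± 0.12 (n = 3 each, edgeR adjusted p = 0.0201), beside 0.643% of all genes. Among females 0 transporters were called lower in Dp16, beside 0.114% of all genes, and 0 in Dp16 2xIFNRs, beside 0.0512%. The values of Slc22a8 in females were -0.31 ± 0.12 (edgeR adjusted p = 0.279) and -0.27 ± 0.12 (edgeR adjusted p = 0.480). Slc22a7 ran the other way, with log2 folds in females of -0.74 ± 0.18 in Dp16 (edgeR adjusted p = 0.0853) and -0.77 ± 0.18 in Dp16 2xIFNRs (edgeR adjusted p = 0.0992). In males the folds of Slc22a7 were -0.24 ± 0.18 (edgeR adjusted p = 0.624) and -0.27 ± 0.18 (edgeR adjusted p = 0.547). The summed proximal tubule markers of Dp16 females also lay below those of wild-type females, as given above, and their part in these values was not tested.

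The difference between the sexes was then tested itself. The log2 fold in males minus that in females was -0.21 ± 0.18 for Slc22a8 in Dp16 (edgeR adjusted p = 0.729) and -0.31 ± 0.18 in Dp16 2xIFNRs (edgeR adjusted p = 1.00). It was 0.50 ± 0.26 for Slc22a7 in Dp16 (edgeR adjusted p = 0.632) and 0.51 ± 0.26 in Dp16 2xIFNRs (edgeR adjusted p = 1.00). Of the 9 transporters 0 were called in this test for Dp16 against wild-type, beside 0.0171% of all genes, 0 for Dp16 2xIFNRs against wild-type, beside 0.00569%, and 0 for Dp16 2xIFNRs against Dp16, beside 0% of all genes. The genes at an unadjusted p below 0.05 numbered 1380, 621 and 676, and DESeq2 called 32, 23 and 1 genes. A genotype difference that differs between the sexes was therefore not detected for any transporter with 3 animals of each sex per group.

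**Figure D3:**
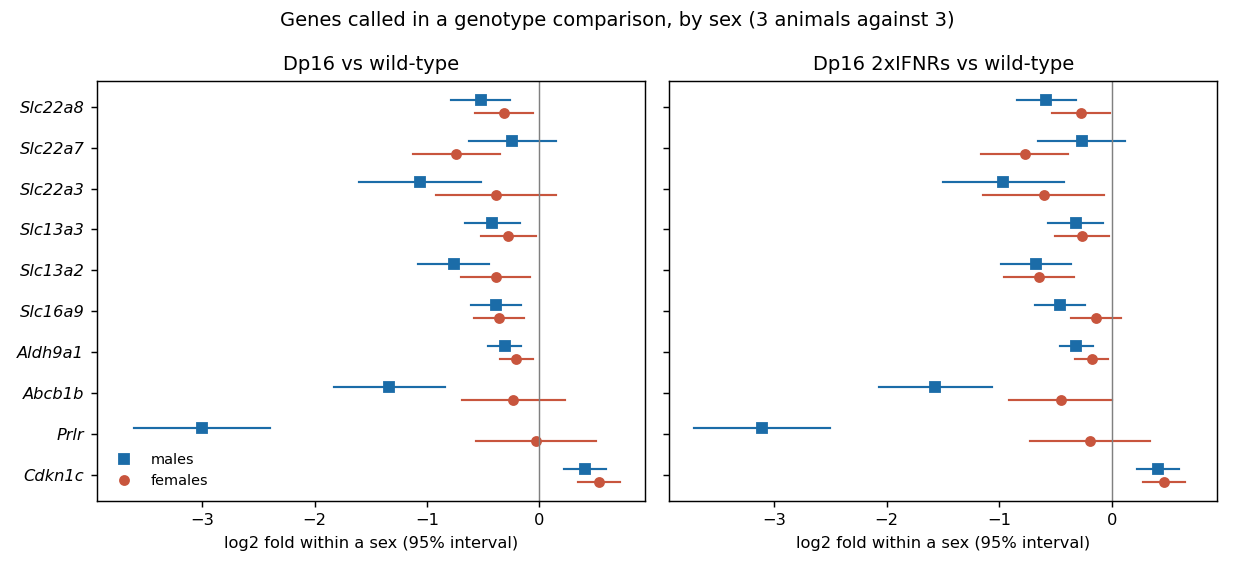
Genotype differences within males and within females, from 3 animals of each genotype and sex, with Slc22a8 and Slc22a7 among the genes shown. The 95% intervals of Slc22a8 lie wholly on the side of lower levels in both sexes, and those of Slc22a7 in females alone. By adjusted p, Slc22a8 was called in males and neither gene in females.

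Sex was the larger measured difference for most of these genes. Of the 9 transporters 4 were higher in males, 3 were lower in males and 2 were not called, beside 38.8% of all genes called, 19.0% higher and 19.7% lower. The split of all calls was 3347 higher and 3466 lower, but 1928 and 5883 on the deposited RPKM, a scale on which the median log2 fold of all genes was -0.13, and the 7 transporters kept their direction and call there. Slc22a6 had 1254 to 1705 CPM in males, with a median of 1395 CPM, against 429 to 717 CPM in females, with a median of 569 CPM. Its log2 fold of 1.42 ± 0.08 (n = 9 each, edgeR adjusted p = 1.54e-11) is a level 2.68 times that of females. The urate carrier Slc22a12 had 2046 to 2643 CPM in males (median 2287 CPM) and 906 to 1263 CPM in females (median 1060 CPM), which is 1.12 ± 0.06 higher on the log2 scale (edgeR adjusted p = 6.9e-12). The cation carrier Slc22a2 had 450.2 to 575 CPM in males (median 496 CPM) and 219.6 to 279 CPM in females (median 238 CPM), a log2 fold of 1.01 ± 0.05 (edgeR adjusted p = 1.05e-11). In each of these 3 genes the lowest male lay above the highest female. The share of all genes so separated by sex was not computed, here and for the genes below. Slc22a18, at 527 to 658 CPM in males and 363 to 491 CPM in females, was higher by 0.43 ± 0.05 (edgeR adjusted p = 1.07e-06), again without overlap.

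The genes lower in males were Slc22a13, Slc22a8 and Slc22a4. Slc22a13 had 77.1 to 99.7 CPM in males (median 86.9 CPM) and 139 to 194 CPM in females (median 174 CPM), and was lower in males by a log2 fold of -0.99 ± 0.06 (n = 9 each, edgeR adjusted p = 3.98e-11). Slc22a8 had 367 to 751 CPM in males (median 465 CPM) and 776 to 1157 CPM in females (median 936 CPM), a log2 fold of -0.90 ± 0.07 (edgeR adjusted p = 7.62e-09). Neither gene overlapped between the sexes. Slc22a4, with 38.2 to 70.9 CPM in males and 50.5 to 85.3 CPM in females, did overlap, and its log2 fold was -0.28 ± 0.10 (edgeR adjusted p = 0.0288). That call was lost in 8 of the 18 fits that each left out 1 library, the highest adjusted p being 0.0674 without Dp16 2xIFNRs replicate 5. Without wild-type replicate 2 the fold was -0.24 (edgeR adjusted p = 0.0642). The call was also lost without the genotype term. With the sample number of the labels as a block it was lost too, at a log2 fold of -0.10 (edgeR adjusted p = 0.510). Samples numbered 1 are all male and those numbered 2 all female, so that block takes up part of the sex difference. The genes not called were Slc22a5 at -0.22 ± 0.10 (edgeR adjusted p = 0.1098) and Slc22a7 at -0.17 ± 0.11 (edgeR adjusted p = 0.268).

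The same 6 transporters were called between the sexes within each genotype, and Slc22a4, Slc22a5 and Slc22a7 within none. The called share of all genes was 15.2% in Dp16, 17.7% in Dp16 2xIFNRs and 18.7% in wild-type. The male over female log2 fold of Slc22a6 was 1.37 in Dp16, 1.62 in Dp16 2xIFNRs and 1.27 in wild-type. For Slc22a8 it was -0.94, -1.03 and -0.73 in the same order, and for Slc22a13 -1.02, -0.92 and -1.01. Slc22a7 had a fold of -0.00 in Dp16 and 0.00 in Dp16 2xIFNRs, against -0.50 in wild-type (edgeR adjusted p = 0.0657). Markers of tubule segments moved with sex as well. The 5 markers of the late (S3) proximal tubule summed to 5731 to 7168 CPM in males and 1559 to 1959 CPM in females, 4 of them higher and 1 lower in males. The 5 markers of the early segments (S1 and S2) summed to 1320 to 1876 CPM in males and 1821 to 2552 CPM in females, 4 of them lower. Within males the sum of the S3 markers was 5731 to 6484 CPM in Dp16 and 6335 to 7168 CPM in Dp16 2xIFNRs, against 6693 to 6955 CPM in wild-type, so that Dp16 males lay below wild-type males. The part of these shifts in the transporters' differences was not tested.

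Slc22a8 and Slc22a6 close a stretch of 955 kb (chr19:7673061-8628299) that holds 8 Slc22 genes, and the sex differences along it were of both directions. Of the 8 genes 3 were higher in males, beside 19.0% of all genes, 4 were lower, beside 19.7%, and 1 was not called. On the minus strand, Slc22a19 had a male over female log2 fold of -1.07 ± 0.09, Slc22a27 of -2.80 ± 0.25 and Slc22a29 of -4.10 ± 0.16, all called lower. Slc22a28, between Slc22a27 and Slc22a29, was at 2.86 ± 0.18, and Slc22a30, after Slc22a29, at 3.72 ± 0.18, both called higher, with edgeR adjusted p of 9.24e-11 and 1.83e-12. Slc22a26, at -0.36 ± 0.23, was not called (edgeR adjusted p = 0.241). Slc22a19 to Slc22a30 are close copies of each other, so the assignment of reads among them is uncertain. Slc22a8 and Slc22a6, on the plus strand at the end of the stretch, carried folds of opposite sign as given above.

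**Figure D4:**
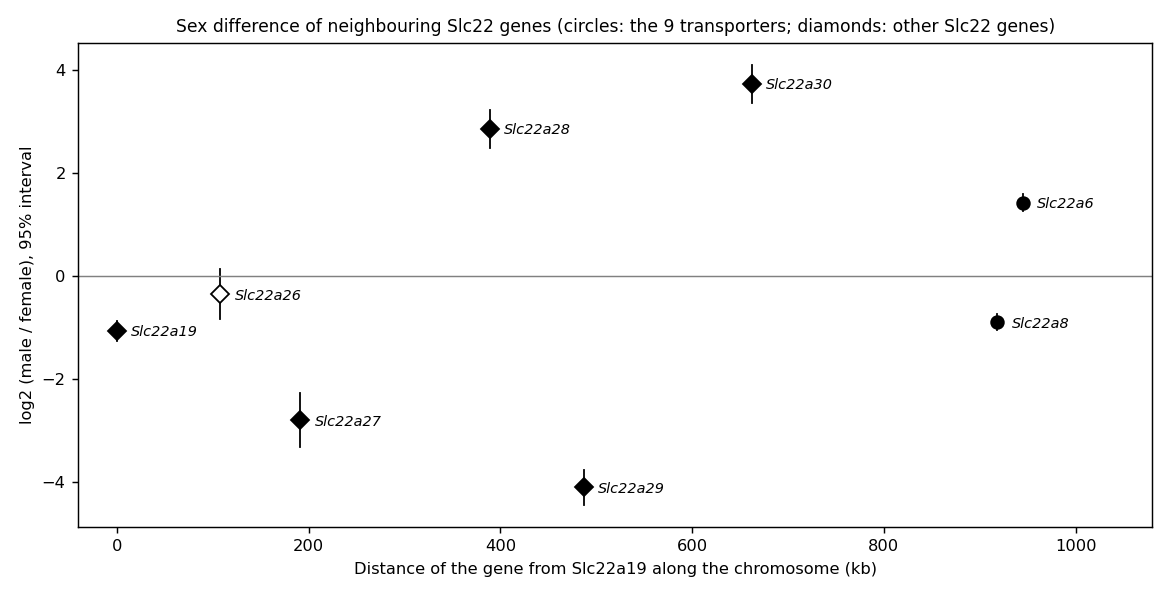
Male over female log2 fold with its 95% interval for the 8 Slc22 genes of the chromosome 19 stretch, against the distance of each gene's start from the first gene in kb. Circles are the listed transporters, diamonds the other Slc22 genes, and filled symbols have an adjusted p under 0.05; the direction changes along the stretch, with folds from -4.10 to 3.72.

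Per length, the order of the transporters differed between the sexes. In males Slc22a12 led with 995 ± 69.1 RPKM (SD, n = 9), followed by Slc22a6 with 347 ± 28.1 RPKM and Slc22a18 with 333 ± 19.2 RPKM, whose ranges overlapped. Slc22a2 had 190.5 ± 14.1 RPKM and Slc22a8 143 ± 31.9 RPKM in males, then came Slc22a7 with 83.8 ± 17.3 RPKM and Slc22a5 with 65.6 ± 11.7 RPKM. From Slc22a2 to Slc22a5 each gene's range overlapped the next. Slc22a13 with 41.4 ± 3.66 RPKM and Slc22a4 with 22.2 ± 4.31 RPKM were lowest and stood apart from each other. In females Slc22a12 led with 500.1 ± 54.3 RPKM, and Slc22a8 with 288 ± 34.4 RPKM came next, its range overlapping that of Slc22a18 with 269 ± 25.0 RPKM. Slc22a6 had 142 ± 23.9 RPKM in females, in a run of overlapping neighbours with Slc22a7 at 105 ± 31.6 RPKM, Slc22a2 at 103 ± 8.58 RPKM, Slc22a13 at 89.2 ± 8.32 RPKM and Slc22a5 at 83.3 ± 11.9 RPKM. Slc22a4 was lowest, with 29.0 ± 5.23 RPKM. Over the 3 genotypes together, Slc22a6 thus ranked 2 of 9 in males and 4 of 9 in females, and Slc22a8 ranked 5 in males and 2 in females. Further down, the order in females varied between genotypes, with Slc22a7 at rank 5 in wild-type and 7 in Dp16 2xIFNRs. For Slc22a6 and Slc22a8 each genotype alone gave the same ranks except Dp16. There Slc22a18 and Slc22a6 both averaged 322 RPKM in males, and Slc22a18 with 267 ± 19.4 RPKM stood above Slc22a8 with 265 ± 29.1 RPKM in females (n = 3), their ranges overlapping.

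**Figure D5:**
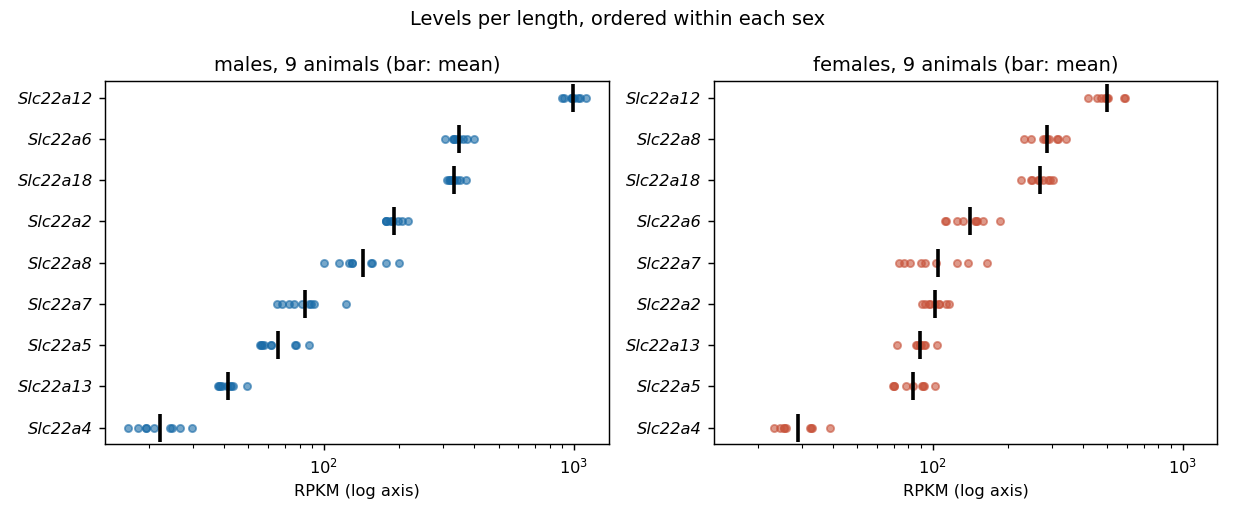
RPKM of the 9 transporters on a log axis, males left of females, each point 1 animal and each bar the mean of 9. Slc22a12 is highest and Slc22a4 lowest in both sexes, and Slc22a8 lies below Slc22a6 in males and above it in females.

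The other Slc22a rows of the tables numbered 17, of which 14 were tested. In Dp16 against wild-type 1 of the 14 was lower and 0 higher, beside 1.06% of all genes called lower. In Dp16 2xIFNRs against wild-type the same gene was the single one called, beside 1.61% of all genes called lower. It was Slc22a3 (OCT3), an organic cation carrier with low counts here. Dp16 kidneys had 1.19 to 2.03 CPM and Dp16 2xIFNRs kidneys 1.05 to 1.97 CPM, against 1.83 to 3.35 CPM in wild-type kidneys. The groups overlapped at the lowest wild-type animals. Slc22a3 fell by 0.72 ± 0.19 on the log2 scale in Dp16 (n = 6 each, edgeR adjusted p = 0.0344) and by 0.79 ± 0.19 in Dp16 2xIFNRs (edgeR adjusted p = 0.0180). The call in Dp16 was lost in 8 of the 18 fits that each left out 1 library, with a highest adjusted p of 0.0776, wild-type replicate 5 being 1 of those libraries (edgeR adjusted p = 0.0768), while the call in Dp16 2xIFNRs held in all 18. Slc22a3 overlaps Plg on the opposite strand, and the share of reads from Plg was not tested. Between the sexes 4 of the 14 were higher in males, beside 19.0% of all genes, 6 lower, beside 19.7%, and 4 not called. The largest difference outside the chromosome 19 stretch was that of Slc22a22, at a log2 fold of 1.36 (edgeR adjusted p = 1.76e-11).

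Genes that work with these transporters were read from a list of 35 exit carriers, dicarboxylate and urate carriers, carnitine enzymes, scaffolds and regulators, of which 33 were tested. In Dp16 against wild-type 0 were higher and 6 lower, beside 1.06% of all genes called lower, and in Dp16 2xIFNRs against wild-type 0 were higher and the same 6 lower, beside 1.61%. With 1 library left out, 4 to 6 of these 6 kept their call in Dp16 and 3 to 6 in Dp16 2xIFNRs. The median log2 fold of the list was -0.17 in Dp16 and -0.08 in Dp16 2xIFNRs. The list was chosen with earlier results of these data known, so setting it beside all genes is no test of it. Slc13a3 supplies the blood-side dicarboxylates that Slc22a6 and Slc22a8 exchange. It had 944 to 1331 CPM in Dp16 and 1041 to 1229 CPM in Dp16 2xIFNRs, against 1232 to 1500 CPM in wild-type, and only the highest Dp16 animal reached the wild-type range. Slc13a3 fell by 0.35 on the log2 scale in Dp16 (edgeR adjusted p = 0.0163) and by 0.29 in Dp16 2xIFNRs (edgeR adjusted p = 0.0385). Slc13a2, the dicarboxylate carrier of the urine side, fell by 0.57 (edgeR adjusted p = 0.00488) and by 0.66 (edgeR adjusted p = 0.00162). The carnitine synthesis enzyme Aldh9a1 fell by 0.26 (edgeR adjusted p = 0.00498) and by 0.25 (edgeR adjusted p = 0.00701), and Slc16a9, a carnitine exit carrier in human, fell by 0.38 (edgeR adjusted p = 0.0115) and by 0.30 (edgeR adjusted p = 0.0419). In Dp16 the calls of Slc13a2, Slc13a3, Aldh9a1 and Slc16a9 held in all 18 fits that each left out 1 library. In Dp16 2xIFNRs those of Slc13a3 and Slc16a9 were each lost in 8 of the 18, the highest adjusted p for Slc13a3 being 0.0885. Without wild-type replicate 5 the edgeR adjusted p in Dp16 2xIFNRs was 0.0748 for Slc13a3 and 0.0576 for Slc16a9, and without wild-type replicate 2 that of Slc16a9 was 0.0882.

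Abcb1b, a drug exit pump, fell by 0.78 in Dp16 (edgeR adjusted p = 0.0417) and by 1.00 in Dp16 2xIFNRs (edgeR adjusted p = 0.00884). The call in Dp16 was lost in 11 of the 18 fits that each left out 1 library, among them that without wild-type replicate 5 (edgeR adjusted p = 0.0529), and that in Dp16 2xIFNRs in none of the 18. In males it had 4.53 to 5.28 CPM in Dp16 and 2.69 to 5.15 CPM in Dp16 2xIFNRs, against 10.3 to 14.5 CPM in wild-type, without overlap. Prlr, the prolactin receptor, had 4.37 to 7.14 CPM in Dp16 males and 3.78 to 6.78 CPM in Dp16 2xIFNRs males, against 32.2 to 72.2 CPM in wild-type males. In females Prlr had 389 to 626 CPM, 415 to 436 CPM and 441 to 553 CPM in the same order of genotypes, and its log2 folds there were -0.03 and -0.19. The difference of its folds, males minus females, was -2.97 ± 0.38 in Dp16 (edgeR adjusted p = 0.00324) and -2.92 ± 0.38 in Dp16 2xIFNRs (edgeR adjusted p = 0.00857). With the sample number as a block the edgeR adjusted p in Dp16 was 0.0547. In Dp16 2xIFNRs the call was lost in 2 of the 18 fits that each left out 1 library. Those were without Dp16 2xIFNRs replicate 1 or wild-type replicate 6 (highest edgeR adjusted p 0.0549). Hnf4a, a factor known to drive several Slc22 genes, was not called, with a log2 fold in Dp16 of -0.20 (edgeR adjusted p = 0.184). Between the sexes 17 of the 33 genes were higher in males, beside 19.0% of all genes, 10 lower, beside 19.7%, and 6 not called. Slco1a1, an anion carrier, had 345 to 825 CPM in males and 0 to 4 counts per library in females, Slc17a2 a log2 fold of -5.66 and Slco3a1 of 1.96.

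Around Slc22a18, 11 of 13 listed genes of the imprinted region were tested, and 1 was called by genotype. That gene was higher in each comparison with wild-type, beside 3.17% of all genes called higher in each. Cdkn1c, an imprinted cell cycle inhibitor, had 45.3 to 49.3 CPM in Dp16 males and 46.1 to 49.9 CPM in Dp16 2xIFNRs males, against 34.9 to 37.2 CPM in wild-type males. In females the ranges were 61.1 to 75.0 CPM, 60.6 to 72.8 CPM and 45.6 to 52.2 CPM in the same order. No animal with the duplication overlapped the wild-type animals of its sex. Of all genes, 2.5% were higher without overlap within either sex in Dp16 and 2.88% in Dp16 2xIFNRs. Cdkn1c rose by 0.47 ± 0.06 on the log2 scale in Dp16 (edgeR adjusted p = 0.000183) and by 0.44 ± 0.06 in Dp16 2xIFNRs (edgeR adjusted p = 0.000419), while Slc22a18 itself was not called.

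Markers of other cells moved with genotype beside the lower Slc22a8 and Slc22a7. Of all genes 3.17% were called higher in each comparison with wild-type. Of 9 macrophage markers 8 were higher in Dp16 and 7 in Dp16 2xIFNRs, and 0 were lower. Their summed level was 267 to 332 CPM in Dp16 and 251 to 337 CPM in Dp16 2xIFNRs, against 171 to 244 CPM in wild-type, without overlap. Of 7 lymphocyte markers 3 were higher in Dp16 and 2 in Dp16 2xIFNRs, with sums of 7.996 to 17.7 CPM and 8.31 to 11.2 CPM, against 4.44 to 8.05 CPM in wild-type. Of 5 injury markers 2 were higher in Dp16 and 3 in Dp16 2xIFNRs, with sums of 713 to 1732 CPM and 671 to 1563 CPM, against 453 to 1380 CPM in wild-type. Of 4 distal tubule markers 1 and 2 were higher, of 4 podocyte markers 1 and 1, and of 5 fat markers 1 was higher in Dp16 and 1 lower in Dp16 2xIFNRs. Of 3 liver markers 1 was lower in each comparison, and the 1 adrenal marker tested was lower in Dp16 2xIFNRs. Wild-type replicate 5 had 28.1 CPM of the adrenal gene Star, against at most 1.09 CPM in the other wild-type kidneys. In the liver genes Alb and Apoa1 wild-type replicate 2 had 171 and 13.9 CPM, against at most 33.2 and 0.957 CPM elsewhere in wild-type. The part of these 2 libraries in the liver and adrenal calls was not tested. Of the loop of Henle, collecting duct and endothelial markers 0 were called in either comparison. No marker was at 0 in all libraries, and the part of these cells in the transporters' values was not tested.

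Likeness over the 18 libraries was described with Pearson's r of log2 CPM centred within each sex. The genes most like Slc22a8 were Fmo1 (r = 0.88), a flavin monooxygenase, Aco1 (r = 0.88), the cytosolic aconitase, and Aldh2 (r = 0.87), the mitochondrial aldehyde dehydrogenase. The genes most like Slc22a7 were Btbd6 (r = 0.85), Ptpn5 (r = 0.82) and 1110013H19Rik (r = 0.81). These values share libraries and genotype groups and have no test. Among the pairs of neighbouring transporters, 4 relations within a sex were computed. Slc22a6 and Slc22a8 had r = 0.79 in females (n = 9, exact permutation p = 0.0114, adjusted over the 4 relations 0.0458) and Spearman rho = 0.72 (exact permutation p = 0.0369, adjusted 0.147). Without the 2 females farthest from the median of Slc22a6 r was 0.54. Leaving out such animals narrows the range of Slc22a6, so this value cannot tell whether the relation rests on them. In males r was 0.28 (exact permutation p = 0.457) and rho 0.18 (exact permutation p = 0.644), and r was 0.60 without the 2 males farthest from the median. A difference between the sexes in this relation was not tested. Slc22a4 and Slc22a5 had r = 0.59 in males (exact permutation p = 0.0980) and 0.21 in females (exact permutation p = 0.577). The 9 animals of a sex span 3 genotypes, and 3 animals per genotype are too few for a value within each. The permutations exchanged animals across genotypes, so their p values cannot tell a shared genotype difference from variation between animals.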

How the data were processed

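PolyA RNA of 18 mouse kidneys was measured, and groups were taken from the labels. TRIzol extraction and a strand-specific Tecan/NuGEN Universal Plus mRNA kit were used, per the labels' protocols. HISAT2 2.1.0 and HTSeq 0.6.1 are named for build GRCm38, beside SAMtools 1.5, FastQC 0.11.5 and bcl2fastq, per the submitters' processing notes. The authors deposited counts per gene, not normalized, and RPKM values, whose making is not given in the sources used here. Counts divided by RPKM gave 1 gene length within 0.1% in 12540 of 12540 genes with a count of at least 50, using library totals. No libraries were duplicates (lowest chi-square per degree of freedom 23.4).

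Counts went into edgeR 4.0.16's quasi-likelihood test (R 4.3.3, TMM, 1 fit of 18 libraries with genotype and sex as terms). The filter (minimum count 10, minimum total 15) kept 17575 genes and removed 37810. P values are two-sided, adjusted by Benjamini-Hochberg over all genes tested, with 0.05 as the threshold. The SE is the log2 fold divided by the square root of F and is approximate. Differences within a sex or a genotype, and their interactions, came from a fit with a mean per genotype and sex. P values of neighbour correlations came from an exact two-sided permutation test. The biological coefficient of variation was 16.8%. The steps were also tested on simulated counts.

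The members and gene lists were chosen with earlier results of these data known. The text names all 9 members, the other tested Slc22a genes with a call or in the chromosome 19 stretch, partner genes called by genotype or of smallest p by sex, called genes around Slc22a18, and the 3 genes most like each called member. Hnf4a is named beyond that rule. Of 35 partner genes 34 were in the tables.

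Alternatives were RLE size factors, no filter, an average log2 CPM of at least 1, an age covariate, a block for the sample number, limma-voom (limma 3.58.1) with a random block for the number in the description, DESeq2 1.42.0, limma-trend on log2(RPKM + 0.1), no sex or genotype term, 2 groups alone, and each library left out. The main fit did not treat same-numbered animals as pairs, and whether they pair was not settled.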

Additional observations from a re-analysis of the deposited data

Results flagged for a closer look

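Among the named genes, 108 sets of 6 animals were checked for a single animal far from the rest, and 2 were found, fewer than the about 5 that a chance of 1 in 20 gives. Each set mixes 3 males and 3 females, so a lone animal cannot stand out in a gene whose sexes lie apart. Slc22a14, a low-count neighbour of Slc22a13, had 0.534 CPM in Dp16 replicate 3, a gap of 0.718 of the group's range against a critical value of 0.625. Slc22a26, of the chromosome 19 stretch, had 98.1 CPM in wild-type replicate 6, against 18.4 to 36.6 CPM in the other wild-type animals, a gap of 0.771 of the range. Sharing of reads between Slc22a26 and its close copies was not tested.

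Prlr, the prolactin receptor, had genotype differences that differed between the sexes. Its log2 fold in males minus that in females was -2.97 for Dp16 against wild-type and -2.92 for Dp16 2xIFNRs against wild-type, in the edgeR test of the difference itself. With the sample number as a block the edgeR adjusted p for Dp16 was 0.0547. For Dp16 2xIFNRs the call was lost in 2 of the 18 fits that each left out 1 library. These comparisons share the wild-type animals. None of the 9 transporters had such a call in that test, and DESeq2 called none of them either.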

How the results depend on the processing

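Slc22a8 was called lower in Dp16 and in Dp16 2xIFNRs under 27 of 28 alternatives each, and missed the threshold without the sex covariate (adjusted p = 0.711 and 0.667). Slc22a7 was called under 8 of 28 alternatives in Dp16 (adjusted p 0.00505 to 0.134) and 17 of 28 in Dp16 2xIFNRs (adjusted p 0.00238 to 0.104). In Dp16 it was called in 3 of the 18 fits that left out 1 library, those without Dp16 replicate 2, Dp16 2xIFNRs replicate 3 or wild-type replicate 4. In Dp16 2xIFNRs it was lost without Dp16 2xIFNRs replicate 1, 2, 4, 5 or 6 or wild-type replicate 2, 3 or 6. No transporter that was called changed direction, and of 3807 values recomputed for the 9 transporters 3723 kept their side of the threshold, 27 moved past it and 57 fell short of it.

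Of the 9 transporters 2 were called in Dp16 against wild-type, and 1 at an average log2 CPM of 1 or more, with limma-voom, on the RPKM or with 2 groups alone, 0 without the sex covariate, and 3 with no filter, which added Slc22a4. In Dp16 2xIFNRs against wild-type, also 2, the number was 1 with the age covariate or on the RPKM, 0 without the sex covariate, 3 with no filter or by DESeq2, which added Slc22a4, and 4 with the replicate block, which added Slc22a4 and Slc22a18. Leaving out 1 library gave 1 to 2 in Dp16 and 1 to 3 in Dp16 2xIFNRs. Between the sexes 6 to 8 were called over all alternatives, against 7. The alternatives for the other named genes were chosen after seeing the data. Abcb1b was called under 12 of 28 in Dp16, Prlr under 13 and Slc22a3 under 18, and none of the named genes called changed direction.

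Among all genes, 744 were called in Dp16 against wild-type, 1236 by DESeq2, 190 without the sex covariate, 453 with 2 groups alone and 429 to 815 with 1 library left out. In Dp16 2xIFNRs against wild-type 841 were called, 1287 by DESeq2, 234 without the sex covariate and 526 to 920 with 1 library left out. The interaction of sex and genotype called 3 genes in Dp16, but 55 with no filter, 5 with the age covariate, 0 with the replicate block, 32 by DESeq2, 8 on the RPKM and 2 to 14 with 1 library left out. In Dp16 2xIFNRs it called 1 gene, but 61 with no filter, 5 at an average log2 CPM of 1 or more, 2 with the replicate block, 7 with limma-voom, 23 by DESeq2, 4 on the RPKM and 0 to 9 with 1 library left out. Between Dp16 2xIFNRs and Dp16 it called 0, but 12 with no filter and 1 by DESeq2. The cause of these shifts was not tested. Over 18 pairs of animals of equal sample number r was -0.17 to 0.20, with 7 above 0.1. Animals of different number were not compared, so these values cannot tell whether the numbers pair animals. With the replicate block the adjusted p of Slc22a8 was 0.0111 in Dp16 and 0.0101 in Dp16 2xIFNRs, and that of Slc22a7 0.0266 and 0.0172. The correlation of Slc22a6 and Slc22a8 in females fell to 0.54 without the 2 farthest animals. The limits are 3 animals per genotype and sex, whole tissue without cell counts, and reads that near copies may share.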
